A study of Mus musculus with 18 samples.

Results

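Csf1, Csf2, Il3, Osm, Flt3l and Tgfb1 encode secreted factors that T cells can make and that act on blood-forming cells. These 6 genes were taken by name from the gene column of the count files, out of 23930 genes on the panel. RNA was measured in CD8 and CD4 T cells sorted from mouse bone marrow. The study used 3 kinds of mice, 3 of each. pMT-10 mice given zinc-enriched water for 30 days overexpressed IL-10, since a metallothionein promoter, which zinc switches on, drives their IL-10 transgene. pMT-10 mice on control water carry the same transgene without added zinc. C57BL/6 mice given the zinc-enriched water lack the transgene. Each kind gave 3 CD8 and 3 CD4 libraries, 18 in 6 groups of 3, and the labels give no age and do not tie a library to a mouse. The p-values therefore measure the spread between these libraries.

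Blood cells form in the marrow from stem and progenitor cells under the control of secreted growth factors. M-CSF, the product of Csf1, drives monocytes and macrophages. GM-CSF (Csf2) and IL-3 (Il3) share a receptor beta chain and act on granulocytes, monocytes and, for IL-3, earlier progenitors and mast cells. Flt3 ligand (Flt3l) acts on early progenitors and dendritic cells. Oncostatin M (Osm) signals through gp130, and TGF-beta 1 (Tgfb1) is known for holding stem cells quiescent and for restraining T cells.

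Windows of 250 bases before a RefSeq transcript start were found for 5 of the 6 genes, all but Osm, in a RefSeq table on GRCm38.p6. The windows of Csf1 and Tgfb1 are shown because both genes were called in zinc-fed pMT-10 CD8 cells against C57BL/6. Flt3l was called there too, but the range of its gene reaches into its window, which is not shown. Tgfb1 was not called against control water, and its call against C57BL/6 held in 6 of 15 alternatives. Csf1 lies on chromosome 3 from 107741048 to 107760469 on the minus strand, Flt3l on chromosome 7 from 45131183 to 45136490 on the minus strand, and Tgfb1 on chromosome 7 from 25687002 to 25705077 on the plus strand. Each window is written 5′ to 3′ on the strand of its gene, Csf1 at chr3:107760470-107760719 and Tgfb1 at chr7:25686752-25687001. Capitals mark matches, on either strand, to the NFAT core GGAAA or to the NF-kB letters (GGG, any 5 bases, then CC).
Csf1: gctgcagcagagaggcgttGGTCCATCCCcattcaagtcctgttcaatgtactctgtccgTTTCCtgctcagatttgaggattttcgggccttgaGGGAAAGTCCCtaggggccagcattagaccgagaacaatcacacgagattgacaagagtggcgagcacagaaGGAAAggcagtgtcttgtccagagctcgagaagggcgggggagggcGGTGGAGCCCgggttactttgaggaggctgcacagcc
Tgfb1: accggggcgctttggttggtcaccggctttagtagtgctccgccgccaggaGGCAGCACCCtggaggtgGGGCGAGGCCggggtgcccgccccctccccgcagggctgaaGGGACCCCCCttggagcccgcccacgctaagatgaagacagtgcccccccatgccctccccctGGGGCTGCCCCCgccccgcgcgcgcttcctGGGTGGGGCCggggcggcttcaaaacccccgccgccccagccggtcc
The Csf1 window held 3 NFAT core matches and 4 NF-kB matches, of which a pair overlapped each other and one of the NFAT matches. The Tgfb1 window held 7 NF-kB matches, some overlapping, and no NFAT match. Such short patterns are common. The NFAT core was in 55.6% of 32851 windows of this length and the NF-kB letters were in 45.8%. Neither the AP-1 letters TGANTCA (6.75% of windows) nor the STAT letters TTCNNNGAA (7.02%) were in any of the 5 windows. For Csf2 the RefSeq start lies 232 bases from the start in the GENCODE annotation, so its window leaves out bases just before that other start. The Tgfb1 window was 75.2% G and C with 21 CpG dinucleotides, against 56.4% and 10 for Csf1, where the median window had 52.4% G and C.

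Libraries held 10546798 to 18519474 counts, so that 1 CPM, or count scaled to library size, stood for 10.5 to 18.5 reads. All 12 libraries of zinc-fed mice were run on 1 chip and the 6 libraries of pMT-10 mice on control water on another, so zinc and chip cannot be told apart when these groups are compared, while the comparison with C57BL/6 stays within 1 chip. C57BL/6 libraries carried Y-linked reads and pMT-10 libraries carried Xist, so sex and strain cannot be told apart in it. The sorts held their labelled cells: the sum of Cd4, Cd40lg and Zbtb7b was at most 10.2 CPM in CD8 libraries and at least 1889 CPM in CD4 libraries. The sum of Cd8a and Cd8b1 was at most 45.5 CPM in CD4 libraries and at least 3512 CPM in CD8 libraries. Il10 itself averaged 12.8 ± 9.62 CPM in zinc-fed pMT-10 CD8 cells and had no read in CD8 cells of either control group (SD, n = 3 each), at least 194-fold higher than on control water and at least 163-fold higher than in C57BL/6, against a floor of 3 counts over the group at 0. Without the first zinc-fed pMT-10 CD8 library these bounds were 128-fold and 107-fold. In CD4 cells Il10 averaged 21.2 ± 4.71 CPM in zinc-fed pMT-10 mice, against 2.71 ± 1.16 CPM on control water and 6.13 ± 2.76 CPM in C57BL/6.

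Among the members called in zinc-fed pMT-10 cells against a control, Csf1 changed most. Csf2 had larger fitted log2 differences in some comparisons, such as -5.77 against C57BL/6 in CD8 cells. These rested on few reads and were not called. In control mice the reads of Csf1 came almost wholly from CD4 cells, and in zinc-fed pMT-10 mice CD8 cells held Csf1 too. zinc-fed pMT-10 CD8 cells held 34.1, 7.62 and 48.5 CPM of Csf1. CD8 cells of pMT-10 mice on control water held 0.459, 0 and 0 CPM, which was 7 reads in all, and those of zinc-fed C57BL/6 mice held 0.515, 0.935 and 2.34 CPM. Every zinc-fed pMT-10 library thus stood above every control library, though the 3 differed widely among themselves (30.1 ± 20.7 CPM, SD, n = 3). In these bulk samples, fewer cells that make a factor and less of its RNA per cell cannot be told apart.

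Csf1 rose in CD8 cells in the quasi-likelihood test of edgeR, with Benjamini-Hochberg adjustment over the 11316 genes tested, as for all adjusted p below. The log2 difference from zinc-fed C57BL/6 was 4.49 (SE 0.64, 95% interval 3.14 to 5.84, adjusted p 0.0002663), which was 23.8-fold in mean CPM and 41.5-fold without the third C57BL/6 CD8 library. The log2 difference from control water was 7.50 (SE 0.85, interval 5.70 to 9.30, adjusted p 3.184e-05). The ratio of means was 197-fold, and at least 308-fold without the first control-water CD8 library, which held all 7 reads of its group. Both calls held under each alternative run (15 and 14). Between the control groups, Csf1 in CD8 cells was lower on control water than in C57BL/6 (log2 -3.01, SE 1.19) but was not called (adjusted p 0.6634). That difference was called in 1 of 14 alternatives, with no low-count filter (adjusted p 1.406e-07).

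**Figure D1:**
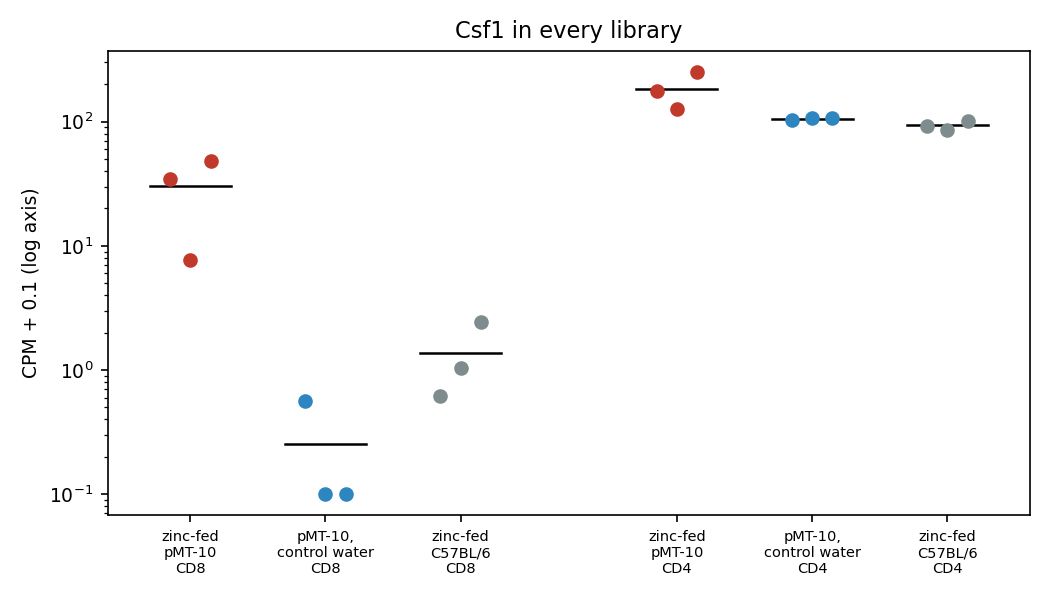
Csf1 in each of the 18 libraries, as CPM plus 0.1 on a log axis, for zinc-fed pMT-10, control-water pMT-10 and zinc-fed C57BL/6 mice in each cell type; each point is a library and each line a group mean. Csf1 was near or at 0 in CD8 cells of both control groups, between 7.62 and 48.5 CPM in zinc-fed pMT-10 CD8 cells, and above 85 CPM in all 9 CD4 libraries.

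CD4 cells held Csf1 in every mouse. Zinc-fed pMT-10 CD4 libraries had 176, 127 and 251 CPM, against 103, 106 and 106 CPM on control water and 92.0, 85.8 and 102 CPM in C57BL/6. The zinc-fed pMT-10 libraries were again above all control libraries, but with a wide spread of their own. The difference was 1.98-fold from C57BL/6 (log2 0.99, SE 0.47, adjusted p 0.1624) and 1.76-fold from control water (log2 0.81, SE 0.46, adjusted p 0.2492), and an exact two-sided permutation test gave 0.1 for each, the smallest p that 3 against 3 allows. Neither passed the test. Both were called with no low-count filter (adjusted p 1.31e-06 and 0.0001503) and when only the groups compared were fitted (adjusted p 0.007267 and 0.01762). The zinc-fed pMT-10 CD4 library with the most Csf1, the third, was also the one with 159 CPM over a list of 6 platelet markers, and the part of that in its Csf1 was not tested.

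The gap in Csf1 between the cell types was present in each kind of mouse and smaller in zinc-fed pMT-10 mice. Csf1 was lower in CD8 than in CD4 cells by a log2 difference of -2.61 in zinc-fed pMT-10 mice (SE 0.49, adjusted p 0.0009404), -9.30 on control water (adjusted p 5.33e-07) and -6.12 in C57BL/6 (adjusted p 3.595e-06). Tested directly, the change in CD8 cells exceeded that in CD4 cells by 3.51 log2 units against C57BL/6 (SE 0.79, adjusted p 0.01829) and by 6.68 log2 units against control water (SE 1.03, adjusted p 0.002226). The first of these missed the threshold without the second C57BL/6 CD8 library (adjusted p 0.05484) or without the first zinc-fed pMT-10 CD4 library (adjusted p 0.05368) and held in 19 of 21 alternatives. The second held in all 20.

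Because CD4 cells held so much more Csf1, the Cd4 reads of the CD8 libraries give a measure of carried-over CD4 cells. In zinc-fed pMT-10 CD8 libraries Csf1 stood at 18.5, 4.13 and 26.2% of its mean in the CD4 libraries of zinc-fed pMT-10 mice, while Cd4 stood at 0.0551, 0.00868 and 0%. At the ratio of Csf1 to Cd4 in the sorted CD4 libraries, these Cd4 reads correspond to at most 0.102 CPM of Csf1, against the 7.62 to 48.5 CPM found. Carried-over cells with another ratio were not tested. In C57BL/6 CD8 libraries the same reckoning gave 0.0517 to 0.236 CPM, against 0.515 to 2.34 CPM found. Myeloid and stromal cells also make Csf1. Of 11 monocyte and macrophage markers, 5 had reads in zinc-fed pMT-10 CD8 cells and Cd14, Adgre1, Fcgr1, Cybb, Cd163 and Clec4a1 had none. The sum of the list, led by Cd68, was 18.9 to 35.8 CPM in zinc-fed pMT-10, 14.6 to 18.6 CPM on control water and 6.49 to 15.8 CPM in C57BL/6. In CD4 libraries it was 44.8 to 52.2 CPM in zinc-fed pMT-10, 38.2 to 65.1 CPM on control water and 38.7 to 55.0 CPM in C57BL/6. The sum of 8 stromal and endothelial markers, led by Pecam1, was 226 to 307 CPM in zinc-fed pMT-10 CD8 cells, 337 to 352 CPM on control water and 322 to 400 CPM in C57BL/6, with Col1a1, Col1a2, Cdh5 and Kdr at 0 in the zinc-fed pMT-10 libraries. The part of such cells in Csf1 was not tested beyond these values.

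**Figure D2:**
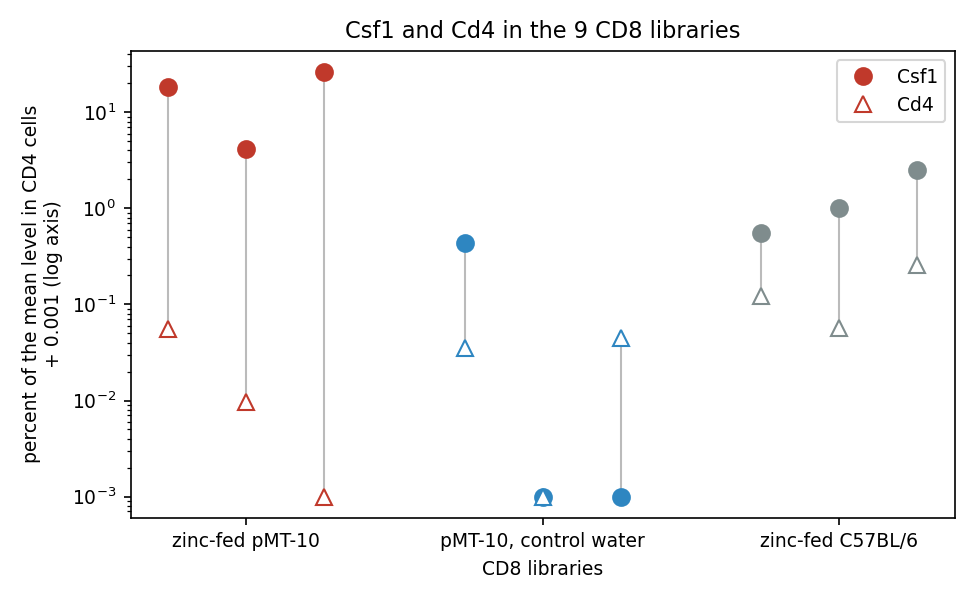
Csf1 (filled circles) and Cd4 (open triangles) in the 9 CD8 libraries, each as a percent of its mean level in the CD4 libraries of the same kind of mice, plus 0.001, on a log axis. In the 3 zinc-fed pMT-10 libraries Csf1 lay at 4.13 to 26.2% and Cd4 at 0 to 0.0551%.

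Csf2 and Il3 lie side by side on chromosome 11, 15185 bases apart, and both were at or near 0. Il3 had no read in any of the 18 libraries. A count of 0 allows up to 0.0122 CPM over all libraries, and 0.159 to 0.293 CPM in a single one. Il3 did not pass the low-count filter, and its change could not be tested.

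Csf2 had no read in zinc-fed pMT-10 CD8 cells or of pMT-10 mice on control water, and 0, 0 and 1.41 CPM in CD8 cells of C57BL/6, where all 21 reads came from the third library. In CD4 cells Csf2 had 0.457, 0 and 0.150 CPM in zinc-fed pMT-10 mice. CD4 cells held 1.10, 1.87 and 2.23 CPM on control water and 0.0760, 0 and 2.12 CPM in C57BL/6. The zinc-fed pMT-10 CD4 libraries lay below all 3 control-water libraries and inside the range of C57BL/6. The log2 difference from control water was -2.98 (SE 1.67, adjusted p 0.2378), with an exact permutation p of 0.1, and Csf2 passed only when the groups compared were fitted alone (adjusted p 0.02818). The ratio to C57BL/6 was 0.276 and became 5.32 without the third C57BL/6 CD4 library, so its direction rested on that library.

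Csf2 was lower in CD8 than in CD4 cells on control water (adjusted p 0.03358), where CD4 cells held at least 25.8-fold more than the floor of 3 counts over the CD8 group. That call was lost when any of the 6 libraries was left out (adjusted p 0.05317 to 0.09547). Innate lymphoid and NK cells also make GM-CSF. A list of 10 of their markers summed to 81.3 to 130 CPM in zinc-fed pMT-10 CD4 cells, 422 to 493 CPM on control water and 223 to 267 CPM in C57BL/6. Gata3 led the list in zinc-fed pMT-10 and C57BL/6 CD4 cells, and Klrb1c led it on control water. Klra4 had no read in any of these groups, Klra8 none in zinc-fed pMT-10 and C57BL/6, and Ncr1 none in zinc-fed pMT-10. The part of such cells in Csf2 was not tested.

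Flt3l was expressed in every library and rose modestly in zinc-fed pMT-10 CD8 cells. These held 187, 163 and 131 CPM, against 104, 112 and 121 CPM on control water and 114, 122 and 109 CPM in C57BL/6. All 3 zinc-fed pMT-10 libraries were above all 6 control libraries, with a spread (SD 28.0 CPM) larger than that of either control group (8.40 and 6.31 CPM). The change was 1.39-fold from C57BL/6 (log2 0.48, SE 0.13, adjusted p 0.02719) and 1.42-fold from control water (log2 0.51, SE 0.13, adjusted p 0.01957). The call against C57BL/6 was lost in 7 of 15 alternatives and that against control water in 4 of 14. Without the first zinc-fed pMT-10 CD8 library the adjusted p was 0.1532 and 0.1258, and with only the groups compared in the fit it was 0.1181 and 0.0991. Against C57BL/6 the call was also lost without the second zinc-fed pMT-10 library (0.05643) or the first or the third C57BL/6 library (0.07256 and 0.1101). Against control water it was also lost without the first or second control-water library (0.09418 and 0.05013).

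In CD4 cells Flt3l held 132, 142 and 137 CPM in zinc-fed pMT-10 mice, against 121, 128 and 126 CPM on control water and 136, 125 and 155 CPM in C57BL/6. The groups lay within a narrow band. The log2 difference was -0.02 from C57BL/6 (interval -0.30 to 0.26, adjusted p 0.9409) and 0.13 from control water (interval -0.15 to 0.41, adjusted p 0.5434). The CD8 change exceeded the CD4 change by 0.50 and 0.38 log2 units, which did not pass the test (adjusted p 0.1252 and 0.2842). Against C57BL/6 that difference was called with library size as the only scaling (adjusted p 0.04208) and without the third zinc-fed pMT-10 CD8 library (0.04973).

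Osm was read in every library and passed the test in no comparison. CD8 cells held 17.8, 17.7 and 17.5 CPM in zinc-fed pMT-10 mice, 17.6, 11.1 and 16.1 CPM on control water and 17.0, 15.4 and 24.0 CPM in C57BL/6. These groups overlapped. CD4 cells held 11.03, 14.4 and 12.4 CPM in zinc-fed pMT-10 mice, 21.6, 20.1 and 17.1 CPM on control water and 9.88, 15.1 and 24.4 CPM in C57BL/6. In CD4 cells the zinc-fed pMT-10 libraries lay below those on control water, at 0.644 of their mean (log2 -0.64, SE 0.27, adjusted p 0.1106), and among those of C57BL/6, whose libraries were the most spread. The difference from control water was called with library size as the only scaling (adjusted p 0.047) and when only the groups compared were fitted (adjusted p 0.03325).

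Tgfb1, the factor in this set best known for restraining growth, was lower in zinc-fed pMT-10 CD8 cells. They held 217, 219 and 239 CPM, against 290, 275 and 230 CPM on control water and 323, 307 and 306 CPM in C57BL/6. All 3 lay below every C57BL/6 library, and the lowest control-water library fell among them. Tgfb1 fell to 0.720 of the C57BL/6 mean (log2 -0.47, SE 0.14, adjusted p 0.04304). The difference from control water did not pass (log2 -0.24, SE 0.14, adjusted p 0.3718). The call against C57BL/6 was lost in 9 of 15 alternatives, among them each left-out library of the groups compared (adjusted p 0.06538 to 0.1291).

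CD4 cells held 274, 327 and 235 CPM of Tgfb1 in zinc-fed pMT-10 mice, 406, 345 and 273 CPM on control water and 350, 355 and 384 CPM in C57BL/6. The zinc-fed pMT-10 libraries lay below those of C57BL/6 and overlapped those on control water. The log2 differences were -0.38 (SE 0.14, adjusted p 0.06801) and -0.29 (adjusted p 0.1661). The difference from C57BL/6 was called with library size as the only scaling (adjusted p 0.01722), with upper-quartile scaling (0.03803) and without the second zinc-fed pMT-10 CD4 library (0.02466). The difference from control water was called with library size as the only scaling (0.03041).

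**Figure D3:**
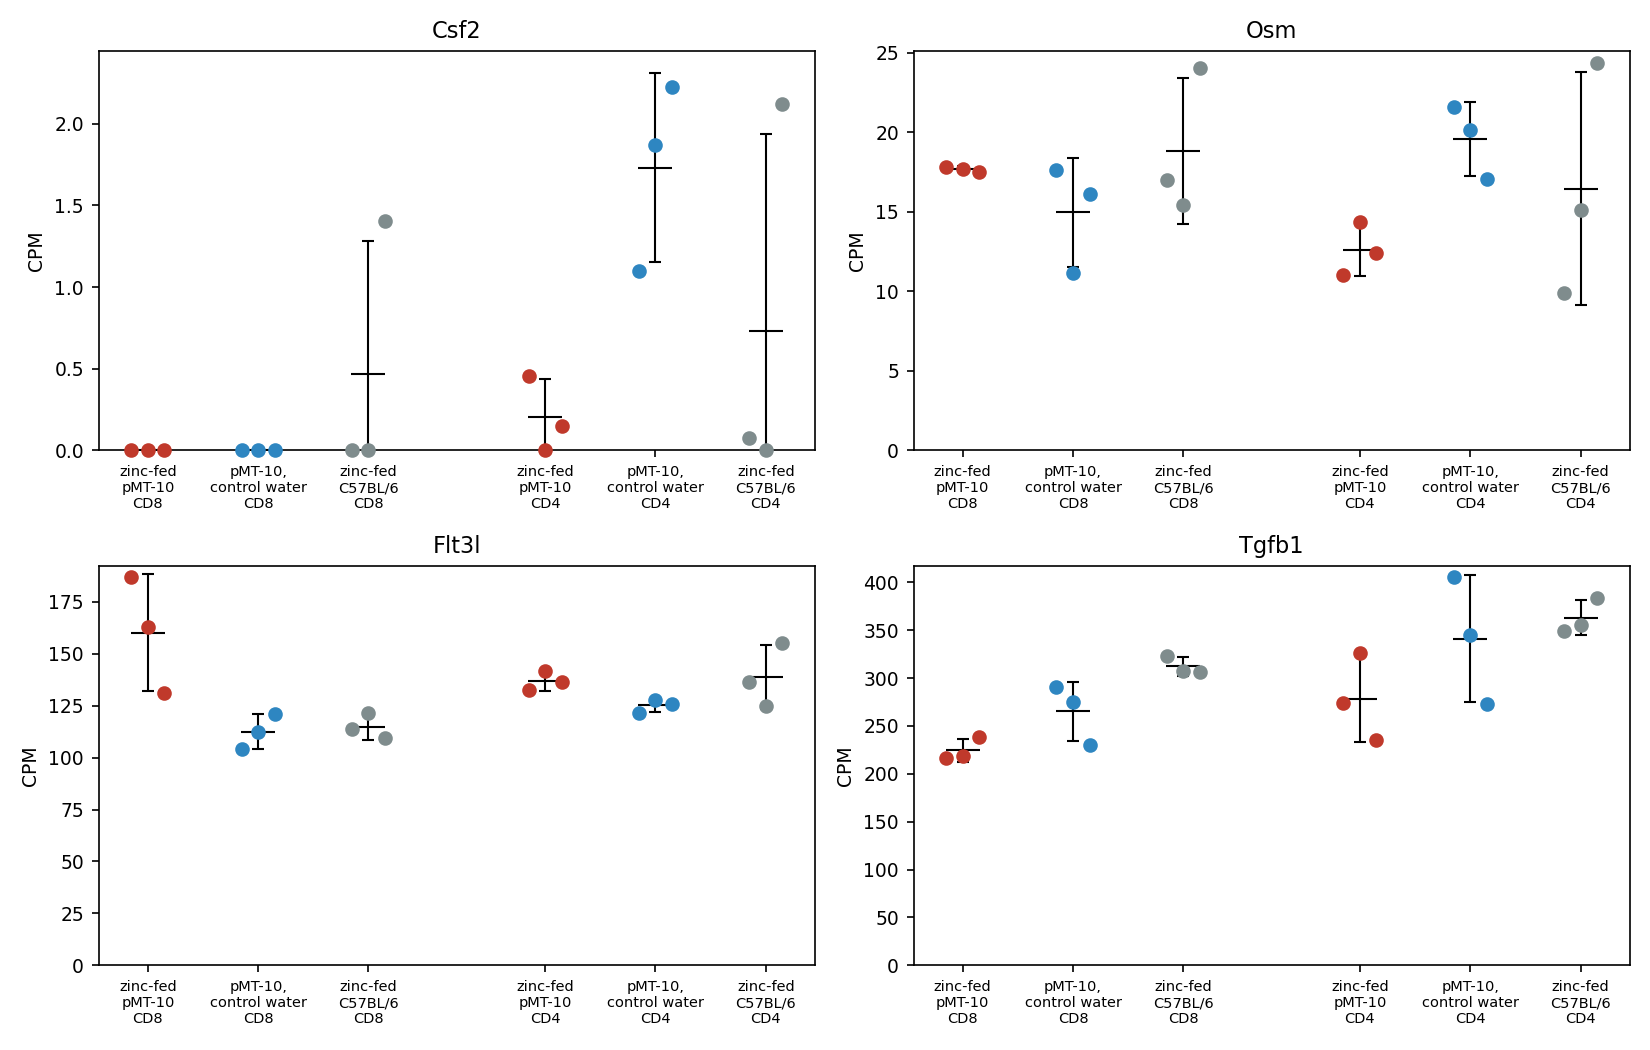
Csf2, Osm, Flt3l and Tgfb1 in each of the 18 libraries in CPM, on linear axes from 0; points are libraries and bars are means with SD of 3 libraries. Flt3l in zinc-fed pMT-10 CD8 cells (131 to 187 CPM) lay above both control groups, and Tgfb1 in the same cells (217 to 239 CPM) lay below C57BL/6 (306 to 323 CPM).

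Counted over the 5 members that passed the low-count filter, 3 were called in CD8 cells against C57BL/6 (Csf1 and Flt3l higher, Tgfb1 lower) where 8.81% of all genes tested were called, and 2 against control water (Csf1 and Flt3l higher) where 7.74% were. In CD4 cells none was called against C57BL/6 (18.7% of genes) or against control water (18.8%) by edgeR or by DESeq2, and 1 had an unadjusted p under 0.05 in each. Between the control groups, control-water pMT-10 against C57BL/6, none was called in CD8 cells (0.0972% of genes) or CD4 cells (0.141%) by either tool, with 2 members at an unadjusted p under 0.05 in CD8 and 0 in CD4. The groups did not overlap for 3 members in CD8 cells against C57BL/6 (23.6% of genes), for 2 against control water (23.1%), for 2 in CD4 cells against C57BL/6 (37.4%) and for 4 against control water (43.3%). Between CD8 and CD4 cells, 1 member was called in zinc-fed pMT-10 mice (28.1% of genes), 2 on control water (21.7%) and 1 in C57BL/6 (22.2%). Csf1 was the 1 member whose change differed between cell types, where 5.49% of genes did so against C57BL/6 and 3.78% against control water. The comparisons with C57BL/6 and with control water share the zinc-fed pMT-10 libraries, so they are not independent of each other.

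**Figure D4:**
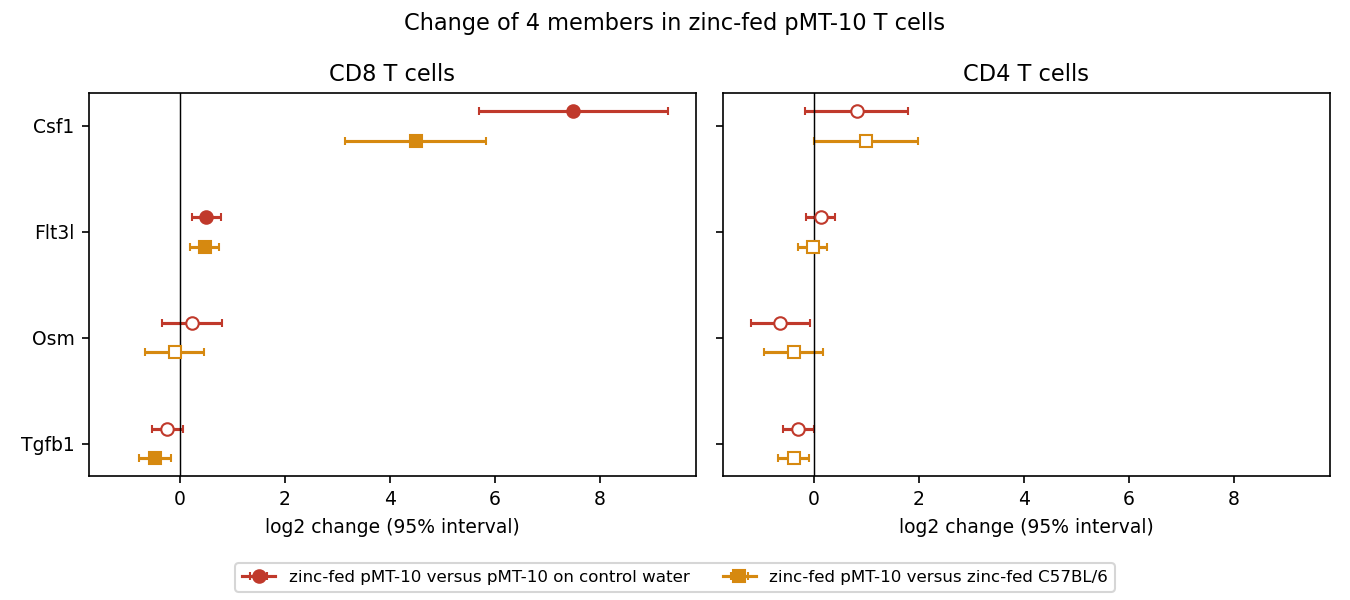
Fitted log2 change of Csf1, Flt3l, Osm and Tgfb1 in zinc-fed pMT-10 mice with its 95% interval, in CD8 cells (left) and CD4 cells (right), against pMT-10 mice on control water (circles) and zinc-fed C57BL/6 mice (squares). Filled symbols mark an adjusted p under 0.05. Csf1 in CD8 cells at 4.49 and 7.50 stood apart from changes of -0.64 to 0.51 in the other genes shown. Csf2 and Il3 are not shown.

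Other growth factors that act on blood formation were read from a list of 31 genes, of which 11 passed the low-count filter. The list holds Il10, which the transgene of pMT-10 mice encodes, so its rise in zinc-fed pMT-10 cells followed from the design. Il10 was among the genes that rose against each control in both cell types, and it enters the medians. In zinc-fed pMT-10 CD8 cells, 2 rose and 1 fell against C57BL/6 (median log2 change 0.98, against -0.0037 over all genes), and 3 rose against control water (median 1.82, against -0.0045). Of all genes tested, 8.81% and 7.74% were called in these comparisons. Ifng, the type 1 cytokine interferon-gamma, averaged 240 ± 100 CPM in zinc-fed pMT-10 CD8 cells, 8.95 ± 4.08 CPM on control water and 11.2 ± 6.78 CPM in C57BL/6, a rise of 26.8-fold (adjusted p 1.474e-05) and 21.5-fold (adjusted p 2.523e-05). In CD4 cells, 2 genes rose and 2 fell against each control, where 18.7% of all genes were called against C57BL/6 and 18.8% against control water. Ifng there averaged 662 ± 178 CPM in zinc-fed pMT-10 mice, against 37.0 ± 7.26 CPM on control water and 49.6 ± 24.1 CPM in C57BL/6. Il10 was the other gene that rose in CD4 cells, and its call against C57BL/6 (adjusted p 0.03192) was lost without the first or second C57BL/6 or the first or the third zinc-fed pMT-10 CD4 library (adjusted p 0.06987 to 0.1316). The genes that fell in CD4 cells were both of the tumour necrosis factor family. Tnfsf11, which encodes RANKL, the factor that drives osteoclasts, had 12.3 CPM in zinc-fed pMT-10 mice, 37.6 CPM on control water and 33.9 CPM in C57BL/6 (adjusted p 0.01367 and 0.02446). Lta, which encodes lymphotoxin alpha, had 18.1 CPM in zinc-fed pMT-10 mice, 40.0 CPM on control water and 51.4 CPM in C57BL/6 (adjusted p 0.01013 and 0.001309). The Ifng calls held in all alternatives. The Tnfsf11 call held in 10 of 15 against C57BL/6 and in 13 of 14 against control water, and the Lta call held in 15 of 15 and in 12 of 14. Those against control water were lost without the first zinc-fed pMT-10 CD4 library (adjusted p 0.09328 for Tnfsf11 and 0.0766 for Lta) and, for Lta, without the third (0.06928).

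The receptors through which the 6 factors act were read from a list of 14 genes, of which 8 passed the filter. In CD4 cells 1 rose and 2 fell against each control (median log2 change -0.24 against C57BL/6 and -0.42 against control water, where the medians of all genes were -0.047 and -0.050 and 18.7% and 18.8% of them were called). Il6st, which encodes gp130, the chain that oncostatin M, LIF and IL-6 share, averaged 160 ± 30.1 CPM in zinc-fed pMT-10 CD4 cells, 415 ± 20.9 CPM on control water and 420 ± 81.1 CPM in C57BL/6. It fell by 1.37 on the log2 scale against control water (adjusted p 2.97e-06) and by 1.39 against C57BL/6 (adjusted p 2.57e-06). Il3ra, the IL-3 receptor alpha chain, rose to 20.5 ± 0.178 CPM, against 9.76 ± 0.944 CPM on control water (adjusted p 0.01383) and 8.39 ± 2.66 CPM in C57BL/6 (adjusted p 0.004165). Acvrl1, a type I receptor of the TGF-beta family, fell to 0.975 CPM, against 3.61 CPM on control water and 4.73 CPM in C57BL/6 (adjusted p 0.01656 and 0.00482). Against control water the Il3ra call was lost without the second control-water CD4 library (adjusted p 0.06497), and the Acvrl1 call without the first or the third zinc-fed pMT-10 CD4 library (0.09154 and 0.08932). In CD8 cells edgeR called none of the 8 receptors against either control. Of all genes, 8.81% were called there against C57BL/6 and 7.74% against control water. There 0 had an unadjusted p under 0.05 against C57BL/6 and 3 against control water, and DESeq2 called 0 and 1.

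The release of active TGF-beta and its signalling were read from 25 genes, of which 18 passed. In CD8 cells 2 rose and 2 fell against C57BL/6 and 1 rose and 3 fell against control water (median log2 change -0.05 and -0.26), where 8.81% and 7.74% of all genes were called. Itgb8, whose integrin frees active TGF-beta from its latent form, averaged 3.67 ± 3.33 CPM in zinc-fed pMT-10 CD8 cells, 0 CPM on control water and 0.0223 CPM in C57BL/6. The second of the zinc-fed pMT-10 libraries had no Itgb8 read. The group was at least 56.7-fold above control water (adjusted p 0.002959), and at least 37.8-fold without the first zinc-fed pMT-10 library. The call against C57BL/6 (adjusted p 0.005416) was lost without the third C57BL/6 CD8 library (adjusted p 0.05832). Itgae, the CD103 integrin chain that TGF-beta induces in T cells, moved in opposite directions in the cell types (difference of the changes -1.41 log2 units, adjusted p 0.002087, against C57BL/6 and -1.85, adjusted p 0.0001246, against control water). In CD8 cells Itgae fell to 51.2 CPM in zinc-fed pMT-10 mice, against 112 CPM on control water and 93.6 CPM in C57BL/6 (adjusted p 0.000145 and 0.002078). In CD4 cells Itgae rose to 97.2 CPM, against 59.2 CPM on control water and 67.0 CPM in C57BL/6 (adjusted p 0.004751 and 0.03017), and the call against C57BL/6 there held in 9 of 15 alternatives. In CD4 cells 1 gene of this list rose and 3 fell against each control (median -0.08 against C57BL/6 and -0.14 against control water), and the 4 called of 18 lay near the 18.7% and 18.8% of all genes. Tgif1, a repressor of SMAD-driven transcription, fell to 77.2 CPM in CD4 cells, against 167 CPM on control water and 141 CPM in C57BL/6 (adjusted p 0.0005164 and 0.004577). Ski and Smad4 were the other two that fell in CD4 cells. The Ski call held in 8 of 15 alternatives against C57BL/6 and the Smad4 call in 6 of 15, and each held in 9 of 14 against control water. The calls were lost, among others, without the first or the third zinc-fed pMT-10 CD4 library (adjusted p 0.156 and 0.1904 for Ski and 0.1079 and 0.1346 for Smad4 against C57BL/6).

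Signalling below the cytokine receptors, through STAT5 and gp130 with its feedback genes, was read from 19 genes, of which 16 passed. In CD8 cells 1 rose and 2 fell against C57BL/6 and 2 rose and 1 fell against control water, and in CD4 cells 3 rose and 4 fell against C57BL/6 and 3 rose and 5 fell against control water. Of all genes, 8.81% and 7.74% were called in CD8 and 18.7% and 18.8% in CD4 cells. The list's medians were 0.03 and -0.02 in CD8 and 0.09 and 0.01 in CD4 cells, each against C57BL/6 and control water in that order. Pim2, a survival kinase induced by cytokines, rose to 366 CPM in zinc-fed pMT-10 CD8 cells, against 244 CPM on control water and 240 CPM in C57BL/6 (adjusted p 0.002972 and 0.002096). Bcl2l1, which encodes the survival protein Bcl-xL, went the other way in both cell types. It fell to 30.5 CPM in CD4 cells, against 92.5 CPM on control water and 65.3 CPM in C57BL/6, and to 29.4 CPM in CD8 cells, against 51.2 CPM on control water (adjusted p 0.03232) and 62.3 CPM in C57BL/6 (adjusted p 0.003859). The CD8 call against control water was lost without any of 5 libraries, all of both groups but the second zinc-fed pMT-10 one (adjusted p 0.05709 to 0.1525). Ptpn6, the phosphatase SHP-1, fell to 98.0 CPM in CD4 cells, against 193 CPM on control water and 230 CPM in C57BL/6 (adjusted p 0.0003917 and 3.746e-05).

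Transcription factors that activation induces and that act on cytokine genes were read from 25 genes, of which 23 passed. In CD8 cells 4 rose and none fell against each control, and in CD4 cells 8 rose and 2 fell against each, beside the same 8.81% and 7.74% of all genes in CD8 and 18.7% and 18.8% in CD4 cells. The medians were 0.03 and 0.17 in CD8 and 0.08 and 0.05 in CD4 cells, against C57BL/6 and control water in that order. Bhlhe40, which is known to promote GM-CSF and interferon-gamma in T cells, averaged 103 ± 47.0 CPM in zinc-fed pMT-10 CD8 cells, 9.07 CPM on control water and 9.86 CPM in C57BL/6 (adjusted p 4e-05 and 5.434e-05). In CD4 cells Bhlhe40 averaged 550 ± 47.9 CPM, against 135 CPM on control water and 137 CPM in C57BL/6. Csf2 was not called against either control in either cell type, apart from the fit of the compared groups alone given above. Irf4, Jun and Batf were the other three that rose in CD8 cells. Against control water Jun and Batf each held in 11 of 14 alternatives, Jun was lost without the second zinc-fed pMT-10 or the second or the third control-water library (adjusted p 0.05595 to 0.103), and Batf without the first or the third zinc-fed pMT-10 or the first control-water library (0.0522 to 0.08859). Between the control groups none of the genes on these 5 lists was called in either cell type by edgeR. Of all genes, 0.0972% were called there in CD8 cells and 0.141% in CD4 cells. At an unadjusted p under 0.05 in that test, CD8 cells had 2 genes of the STAT5 and gp130 list. They also had 1 of the growth-factor list and 1 of the TGF-beta list. CD4 cells had 1 gene of the STAT5 and gp130 list and 1 of the transcription-factor list.

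By the rule of highest Pearson correlation of log2 CPM over the 18 libraries, the genes most like Csf1 were Tigit (r 0.974), Gcnt1 (0.970) and Rgs16 (0.970). Tigit, an inhibitory receptor of T cells, averaged 38.4 CPM in zinc-fed pMT-10 CD8 cells, 1.30 CPM on control water and 1.98 CPM in C57BL/6, and in CD4 cells 154 CPM in zinc-fed pMT-10, 54.1 CPM on control water and 82.3 CPM in C57BL/6. Gcnt1, a glycan-branching enzyme, averaged 19.3 CPM in zinc-fed pMT-10 CD8 cells, 0 CPM on control water and 0.623 CPM in C57BL/6. Like Csf1, both were near 0 in control CD8 cells and present in zinc-fed pMT-10 CD8 cells. The points share their cell types and mice, so these r describe a pattern over 6 groups. The highest r was 0.865 for Flt3l (Pgs1), 0.854 for Tgfb1 (Rrad) and 0.776 for Csf2 (LOC102635948). The members were less alike among themselves, from -0.308 between Flt3l and Tgfb1 to 0.508 between Csf1 and Flt3l.

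Genes beside the members on the chromosome were read in the same libraries. Ahcyl1, next to Csf1, averaged 292 ± 26.9 CPM in zinc-fed pMT-10 CD8 cells, 202 ± 18.3 CPM on control water and 215 ± 20.7 CPM in C57BL/6. It rose by a log2 change of 0.53 (adjusted p 0.009688) and 0.44 (adjusted p 0.03265), far less than Csf1, and the call against C57BL/6 held in 9 of 15 alternatives. Lif, a factor of the same family as Osm and its neighbour on chromosome 11, averaged 8.88 ± 2.22 CPM in zinc-fed pMT-10 CD8 cells, 1.21 ± 0.965 CPM on control water and 0.876 ± 0.984 CPM in C57BL/6. Its log2 difference was 2.83 (adjusted p 0.1529) and 3.28 (adjusted p 0.0916) and did not pass in edgeR. It was called with no low-count filter (adjusted p 0.001207 and 0.0001356) and when only the groups compared were fitted (0.01803 and 0.02297), and against C57BL/6 by DESeq2 (0.02858). Ccdc97, next to Tgfb1, fell in CD8 cells against C57BL/6 (log2 -0.77, adjusted p 0.01861), a call lost without the third C57BL/6 library (0.1308) or the second zinc-fed pMT-10 library (0.08549).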

How the data were processed

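Ion AmpliSeq libraries, 1 amplicon per gene, were made from bone-marrow T cells. The authors deposited raw read counts per gene without scaling, as the values in the count files show. The submitters' processing notes name mm10. The sources used here do not name the aligner or the counter. Levels are not compared between genes. No molecular identifiers are named, so floors of 3 counts cover counting error only.

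All 18 columns were mapped to samples by their barcodes. filterByExpr (minimum count 10) kept 11316 of 23930 genes. Counts were TMM-scaled and fitted with 6 group means by the robust quasi-likelihood test of edgeR 4.0.16 in R 4.3.3 (limma 3.58.1 installed), adjusted by Benjamini-Hochberg over all genes tested with a threshold of 0.05. Intervals are 95% from the fitted SE. The fit was tested on simulated data with 200 changed genes. CPM uses TMM-scaled sizes and folds are ratios of mean CPM. A fold against a group at 0 uses pooled counts against 3 counts over that group.

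All members were named. Other genes came from up to 4 called genes of largest change per list and comparison, or from chromosomal neighbours. The 3 genes most correlated with each member (prior count 2) were also drawn on. Not every gene so picked is given in the text, and for Csf2, Flt3l and Tgfb1 only the most correlated gene is. The correlations of Osm are not reported here. Members and lists were chosen with earlier results of these data known. Lif was named among the neighbours although it was not called. Alternatives were another filter, other scaling, DESeq2 1.42.0, other fits and each library left out. Sequences are from RefSeq on GRCm38.p6.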

Additional observations from a re-analysis of the deposited data

Results flagged for a closer look

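The change in Csf1 differed between cell types by a direct test. The change of zinc-fed pMT-10 over zinc-fed C57BL/6 was larger in CD8 than in CD4 cells by 3.51 log2 units, and the change over pMT-10 on control water was larger by 6.68 log2 units. Both comparisons use the same zinc-fed pMT-10 libraries. The log2 scale counts from CD8 control means near 0, at 1.26 CPM in C57BL/6 and 0.153 CPM on control water, against 30.1 CPM. In CD4 cells the means were 93.2 CPM in C57BL/6, 105 CPM on control water and 185 CPM in zinc-fed pMT-10 mice. The first difference was called in 19 of 21 alternatives and the second in all 20.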

How the results depend on the processing

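No paired analysis was possible because the labels do not tie libraries to mice and replicate numbers follow only the order of the samples. Comparisons below name zinc-fed pMT-10 first. With no low-count filter, 1 member was called in CD4 cells against C57BL/6, 1 in CD4 cells against control water and 1 in CD8 cells between the control groups, with 83 genes (CD4) and 107 genes (CD8) called between the controls and 1055 and 847 genes for the difference between cell types, against C57BL/6 and control water in that order. DESeq2 gave 33, 42, 1030 and 799 genes for the same comparisons. With library size only, 1 member was called in CD4 cells against C57BL/6, 2 against control water and 2 for the difference between cell types against C57BL/6. Upper-quartile scaling gave 1 in CD4 cells against C57BL/6. Fitting only the groups compared gave 1 member in CD4 cells against C57BL/6, 3 in CD4 cells against control water, 1 in CD8 cells against each control, 588 genes in CD8 cells against C57BL/6 and 410 for the difference between cell types against C57BL/6. An alternative chosen after seeing the data left out both C57BL/6 libraries numbered 3, which hold nearly all Csf2 reads of that group, and gave 619 genes and 1 member called in CD8 cells against C57BL/6.

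Leaving out a library in turn gave these ranges. Against C57BL/6, 0 to 1 members and 1377 to 2160 genes were called in CD4 cells and 1 to 2 members and 587 to 920 genes in CD8 cells. Against control water, 1373 to 2103 genes were called in CD4 cells and 1 to 2 members and 565 to 755 genes in CD8 cells. CD8 against CD4 on control water gave 1 to 2 members, and the controls in CD4 cells 7 to 12 genes. The difference between cell types gave 0 to 2 members and 255 to 837 genes against C57BL/6 and 133 to 693 genes against control water.

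Of the values for single members, 763 kept direction and side of the threshold, 17 gained a call, 28 lost one and 27 uncalled values changed sign. Flt3l in CD4 cells against C57BL/6 turned to 0.000154 with DESeq2 size factors, 0.000644 with only the groups compared and 6.57e-05 by DESeq2, and ranged from -0.089 to 0.069 over left-out libraries. With library size only, Flt3l in CD4 cells against control water was -0.016 and the Tgfb1 difference between cell types against C57BL/6 was 0.069. Without both C57BL/6 libraries numbered 3, the CD4 values against C57BL/6 were 2.21 for Csf2, 0.012 for Osm and 0.071 for Flt3l. Osm in CD8 cells against C57BL/6 was then 0.12. Left-out libraries gave, against C57BL/6, -3.04 to 2.21 for Csf2 and -0.65 to 0.010 for Osm in CD4 cells, and -0.20 to 0.12 for Osm in CD8. The difference between cell types ranged from -7.96 to 1.76 for Csf2, -0.096 to 0.55 for Osm and -0.20 to 0.035 for Tgfb1 against C57BL/6, and -0.082 to 0.19 for Tgfb1 against control water. CD8 against CD4 in C57BL/6 ranged from -6.33 to 3.37 for Csf2 and -0.065 to 0.59 for Osm. Between the controls, the ranges were -0.011 to 0.64 for Osm and -0.23 to 0.047 for Tgfb1 in CD4 cells, and -0.085 to 0.025 for Flt3l in CD8 cells. The cause was not tested. A depth of 10.5 to 18.5 reads per CPM limits Csf2 and Il3 most.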
